A study of Mus musculus with 16 samples.

Results

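The 10 genes described here encode 7 matrix metalloproteinases (Mmp2, Mmp3, Mmp9, Mmp11, Mmp13, Mmp14 and Mmp19) and 3 tissue inhibitors of metalloproteinases (Timp1, Timp2 and Timp3). They were taken by symbol from the 49585 genes of the deposited count tables, and all 10 had a row in both. The members were selected on their symbols, with their CPM values in these 16 libraries already known, so the calls and adjusted p-values given for them are a description and not independent evidence. The choice names no contrast and no threshold. A further 17 genes of the same families were examined beside them.

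RNA-seq was performed on C2C12 cells, mouse myoblasts of an established line whose cells fuse when serum is withdrawn, in 16 libraries. In the first experiment, WT and AMPK-KO cells were compared as myoblasts (day 0, d0) and after 8 days of differentiation (d8), with 2 libraries in each of 4 groups. AMPK-KO cells carry CRISPR-Cas9 edits of Prkaa1 and Prkaa2, which encode the catalytic alpha subunits of the energy-sensing kinase AMPK. The study mentions independent AMPK-KO lines beside RNA-seq signal at a single locus, and the labels do not say which library came from which line. In the second experiment, all cells were AMPK-/- myoblasts at d0 and carried a FLAGBirA tag, inserted with an EGFP coding sequence at the endogenous Tet2 gene. TET2-WT cells had the tag alone. TET2-S97E cells had in addition a serine-to-glutamate change made to imitate phosphorylation of TET2, an enzyme that oxidizes methylated cytosine. Each of these genotypes had 2 clones with 2 libraries each, and libraries of 1 clone share their source. Total counts ran from 17883417 to 24663079 per library in the first table and from 19801909 to 37790358 in the second. Levels are given as CPM, the counts scaled to a fixed library size, and were normalized within each table, so no level was compared across tables.

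Matrix metalloproteinases are secreted or membrane-bound zinc proteases that are made as inactive precursors and together cleave most proteins of the extracellular matrix. The TIMPs bind their active site and block it. In muscle these enzymes take part in the remodelling of the basement membrane and the matrix around myofibers, and in myoblast migration and fusion. Mmp2 and Mmp9 are the gelatinases, which digest denatured collagen and type IV collagen. Mmp3 is a stromelysin and Mmp13 a collagenase. Mmp14 is anchored in the membrane and, with Timp2 as a bridge, activates the Mmp2 precursor.

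The members spanned a wide range of levels. Per length of the merged exons, the inhibitors Timp2 and Timp1 held the 2 highest mean levels in 5 of the 6 groups. In WT cells at d0 the order was Timp2 at 353 ± 131 CPM per kilobase (SD, n = 2), Timp1 at 314 ± 29.3, Mmp2 at 138 ± 148, Mmp14 at 92.2 ± 66.0, Timp3 at 37.7 ± 28.1, Mmp11 at 21.9 ± 0.856, Mmp19 at 4.79 ± 1.49 and Mmp3 at 1.21 ± 0.581. Mmp13 and Mmp9 were near zero, at 0.109 ± 0.104 and 0.0136 ± 0.0193 CPM per kilobase. The libraries of Timp2 and Timp1 overlapped, as did those of Mmp2 and Mmp14, of Mmp14 and Timp3, and of Timp3 and Mmp11. In WT cells at d8 Mmp2 held the second place, at 498 ± 153 CPM per kilobase, with libraries that overlapped those of Timp1. In AMPK-KO cells Mmp2 held the seventh place on both days, at 0.603 ± 0.245 CPM per kilobase at d0 and 2.68 ± 0.814 at d8, below Mmp19 and Timp3. In TET2-WT cells it again held the seventh place, at 1.39 ± 1.13 CPM per kilobase (SD, n = 4), and in TET2-S97E cells the fifth, at 38.4 ± 18.3, with libraries that overlapped those of Mmp11 and Mmp19.

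**Figure D1:**
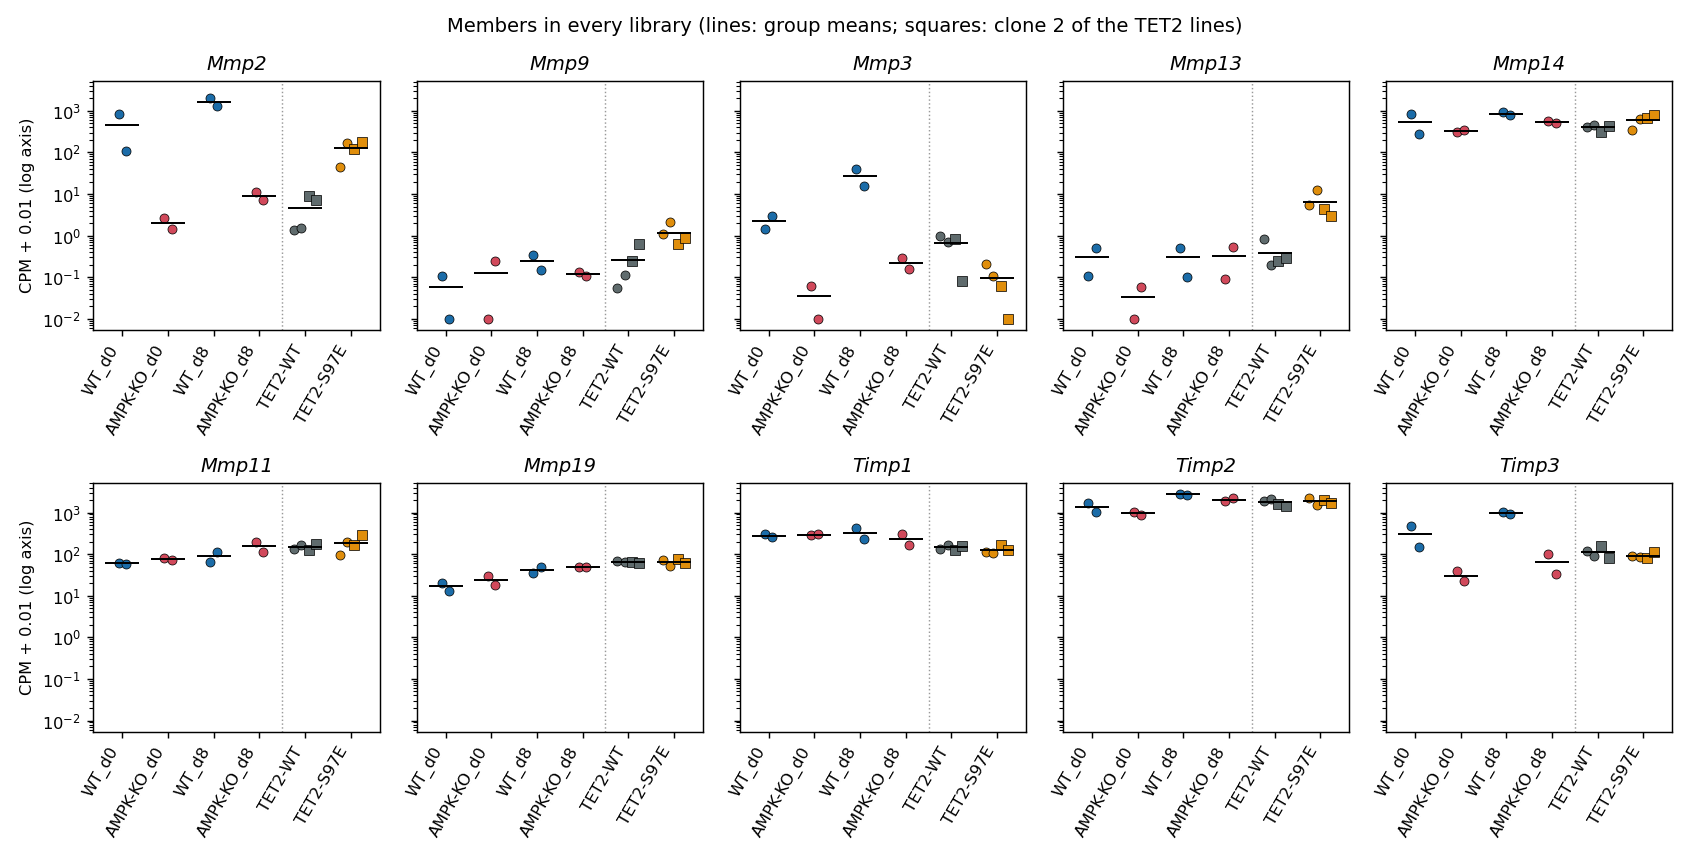
CPM of each member in each of the 16 libraries on a log axis (0.01 CPM added so that libraries at 0 can be drawn), with points for libraries, lines for group means and squares for clone 2 of the TET2 lines, the dotted line separating the 2 tables, which were normalized separately. Mmp2 and Timp3 sit lower in both AMPK-KO groups than in WT, and Mmp2 and Mmp13 sit higher in all 4 TET2-S97E libraries than in the TET2-WT libraries. Timp1 and Timp2 differ less between AMPK-KO and WT than Mmp2 and Timp3 do.

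The edited genes were looked at first. Prkaa1 was at 159 and 159 CPM (WT) against 79.7 and 78.0 CPM (AMPK-KO) at d0, a log2 fold change of -1.01 (SE 0.13, adjusted p = 0.0116, edgeR's quasi-likelihood test with Benjamini-Hochberg adjustment over all genes tested, used throughout). Prkaa2 had 35 and 33 counts for the WT libraries against 4 and 9 for AMPK-KO at d0, and the fitted change was -2.43 (SE 0.51, edgeR adjusted p = 0.0527). Both genes were called lower at d8, by -0.60 and -2.96. Small edits need not remove a transcript, so these counts test the labels only in part. Tet2 was at 22.5 to 58.4 CPM in TET2-WT and at 7.88 to 22.1 CPM in TET2-S97E libraries, which did not overlap, with a fitted change of -1.40 (SE 0.39, edgeR adjusted p = 0.0621).

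The muscle identity of the cells was checked with 12 fixed markers. Des, the muscle intermediate filament, was at 693 to 3298 CPM in the 16 libraries, and of the 12 genes it had the most counts in 12 libraries and Acta1, the skeletal muscle actin, in the other 4. Of 8 leukocyte markers, Adgre1, a macrophage receptor, had 0 counts in every library and Ptprc and Itgam at most 1, while 4 (Cd14, Cd68, Csf1r and Lyz2) passed the filter in both tables. The 8 summed to 9.52 to 27.0 CPM in the first table and 25.5 to 45.1 CPM in the second, with Cd14 the most abundant in every library. The 6 endothelial markers summed to at most 13.04 CPM, and Pecam1 had at most 8 counts. Myogenic markers were not level between the groups. In AMPK-KO cells at d0, 5 of 12 were called lower (2.83% of all genes), among them Pax7 (167 and 169 counts against 0 and 1) and Myog (612 and 361 counts against 12 and 12), and in TET2-S97E cells 8 of 12 were called higher (3.71% of all genes). When 1 library was left out, 0 to 4 of these 5 calls and 2 to 8 of these 8 were kept. At d8 1 of 12 was called lower in AMPK-KO cells (3.98% of all genes). From d0 to d8, 7 of 12 in WT and 8 of 12 in AMPK-KO cells were called higher (5.78% and 4.81% of all genes). Between the TET2-S97E clones 5 of 12 were called lower in clone 2, against 2.82% of all genes. Their summed level was 1844 and 2606 CPM (WT) against 1282 and 1513 CPM (AMPK-KO) at d0, 8452 and 10705 CPM for the WT libraries against 3238 and 13008 CPM for AMPK-KO at d8, 1036 to 1478 CPM in TET2-WT and 1307 to 8729 CPM in TET2-S97E cells. Their part in the changes below was not tested. In bulk RNA, fewer cells of a type and less RNA per cell cannot be told apart.

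Of the first 8 libraries, WT d0 replicate 1 stood apart from replicate 2 in several members. Mmp2 was at 818 against 111 CPM, Mmp14 at 828 against 272 CPM and Timp3 at 469 against 146 CPM. Mmp11 (62.5 and 59.1 CPM) and Timp1 (297 and 260 CPM) differed little between the same libraries. The d0 results of Mmp2, Mmp3, Timp3 and Mmp14, and of further genes where this ended a call or moved a bound, are therefore also given without that library, which leaves 1 WT library whose spread is taken from the other groups.

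In the comparison of AMPK-KO with WT cells at d0, 2 of the 9 members tested were called, both lower, against a background of 3.52% of all genes tested called in either direction and 2.83% called lower. With at least 10 counts in every library, which leaves out Mmp3, 7 members were tested. Of these 1, Mmp2, was called lower, beside 155 of 11488 genes. Mmp9 was at or under 5 counts in every d0 library of this table and was removed as too low to test. Mmp2 had 16966 and 2040 counts (WT) against 50 and 31 (AMPK-KO), or 464 ± 500 CPM against 2.03 ± 0.826 CPM (SD, n = 2). Both WT libraries lay above both AMPK-KO libraries, and even the lower WT library was far above them. The mean level was 228-fold lower in AMPK-KO cells, with a fitted log2 fold change of -7.84 (SE 1.08, edgeR adjusted p = 0.015). Without WT d0 replicate 1 the change of Mmp2 was -5.78 (SE 0.46, edgeR adjusted p = 0.0109), and leaving out either AMPK-KO library ended its call (edgeR adjusted p = 0.119 and 0.111).

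Mmp3, which cleaves proteoglycans, laminin and fibronectin and activates other metalloproteinase precursors, had 30 and 54 counts for the WT libraries against 1 and 0 for AMPK-KO at d0. It passed the filter of this table through the WT libraries alone. The groups did not overlap. With AMPK-KO set to the floor of 3 counts per library, its level was at least 14.7-fold lower (9.74-fold without WT d0 replicate 2), and the edgeR adjusted p was 0.0251. The call of Mmp3 was kept without WT d0 replicate 1 (edgeR adjusted p = 0.039) and lost without WT d0 replicate 2 (edgeR adjusted p = 0.0602) and without either AMPK-KO library (edgeR adjusted p = 0.13 and 0.132). Mmp13 had 2 and 9 counts (WT) against 0 and 1 (AMPK-KO) and was not called (edgeR adjusted p = 0.343).

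Timp3, an inhibitor that stays bound to the matrix and also blocks ADAM and ADAMTS proteases, was at 469 and 146 CPM for the WT libraries against 39.1 and 22.2 CPM for AMPK-KO at d0. The libraries did not overlap. The fitted change of -3.33 (SE 0.71) missed the threshold (edgeR adjusted p = 0.0553), and was called by DESeq2 (adjusted p = 9.26e-07). With the replicate number as a block it was called by edgeR as well (-3.18, SE 0.42, edgeR adjusted p = 0.0159). Without WT d0 replicate 1 it was -2.26 (SE 0.61, edgeR adjusted p = 0.146). Without WT d0 replicate 2 the fitted change of Timp3 was larger in size, at -3.93. Of the remaining members none was called at d0. Mmp14 was at 828 and 272 CPM (WT) against 302 and 345 CPM (AMPK-KO), which overlapped, with a fitted change of -0.76 (SE 0.45, edgeR adjusted p = 0.394). Its fitted change was 0.24 without WT d0 replicate 1, and it was called lower without replicate 2 (-1.35, edgeR adjusted p = 0.0296). The fitted changes of Mmp11, Mmp19, Timp1 and Timp2 lay between -0.50 and 0.51, and none was called.

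At d8, 3 of the 9 members tested were called lower in AMPK-KO cells and none higher, against 5.35% of all genes called in either direction and 3.98% called lower. With at least 10 counts in every library, which leaves out Mmp3, 7 members were tested. Of these 2, Mmp2 and Timp3, were called lower, beside 187 of 11488 genes. Mmp2 was at 2044 and 1313 CPM for the WT libraries against 10.97 and 7.09 CPM for AMPK-KO. All WT values were far above all AMPK-KO values, and the mean was 186-fold lower in AMPK-KO cells, with a fitted change of -7.53 (SE 1.05, edgeR adjusted p = 0.0134). Mmp3 was at 39.3 and 15.6 CPM (WT) against 0.286 and 0.146 CPM (AMPK-KO), the latter from 7 and 3 counts. It passed the filter through the WT libraries alone. Again the groups were well separated, with a fitted change of -6.93 (SE 0.77, edgeR adjusted p = 0.00629), and its call held when any 1 of the 4 libraries was left out. Timp3 was at 1019 and 946 CPM for the WT libraries against 99.9 and 32.9 CPM for AMPK-KO. The mean of Timp3 was 14.8-fold lower in AMPK-KO cells, and this fold would be larger without AMPK-KO d8 replicate 1, at 99.9 CPM. The fitted change was -3.89 (SE 0.73, edgeR adjusted p = 0.0306). The call of Mmp2 was lost without WT d8 replicate 1, WT d8 replicate 2 or AMPK-KO d8 replicate 1 (edgeR adjusted p = 0.0567, 0.051 and 0.0649). That of Timp3 was lost without WT d8 replicate 1, WT d8 replicate 2 or AMPK-KO d8 replicate 2 (edgeR adjusted p = 0.115, 0.115 and 0.0673).

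The other members differed much less at d8. Mmp11, a stromelysin activated inside the cell by furin, was at 66.3 and 113 CPM (WT) against 196 and 115 CPM (AMPK-KO), with a fitted change of 0.79 (SE 0.32, edgeR adjusted p = 0.2). Mmp14 was at 918 and 778 CPM for the WT libraries against 563 and 522 CPM for AMPK-KO, with a fitted change of -0.64 (SE 0.45, edgeR adjusted p = 0.441). The libraries of neither gene overlapped, and neither gene was called. Timp2 was at 2785 and 2654 CPM (WT) against 1889 and 2197 CPM (AMPK-KO), with a fitted change of -0.41 (SE 0.28, edgeR adjusted p = 0.421). Timp1 at 429 and 234 CPM for the WT libraries against 304 and 166 CPM for AMPK-KO overlapped between the groups.

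**Figure D2:**
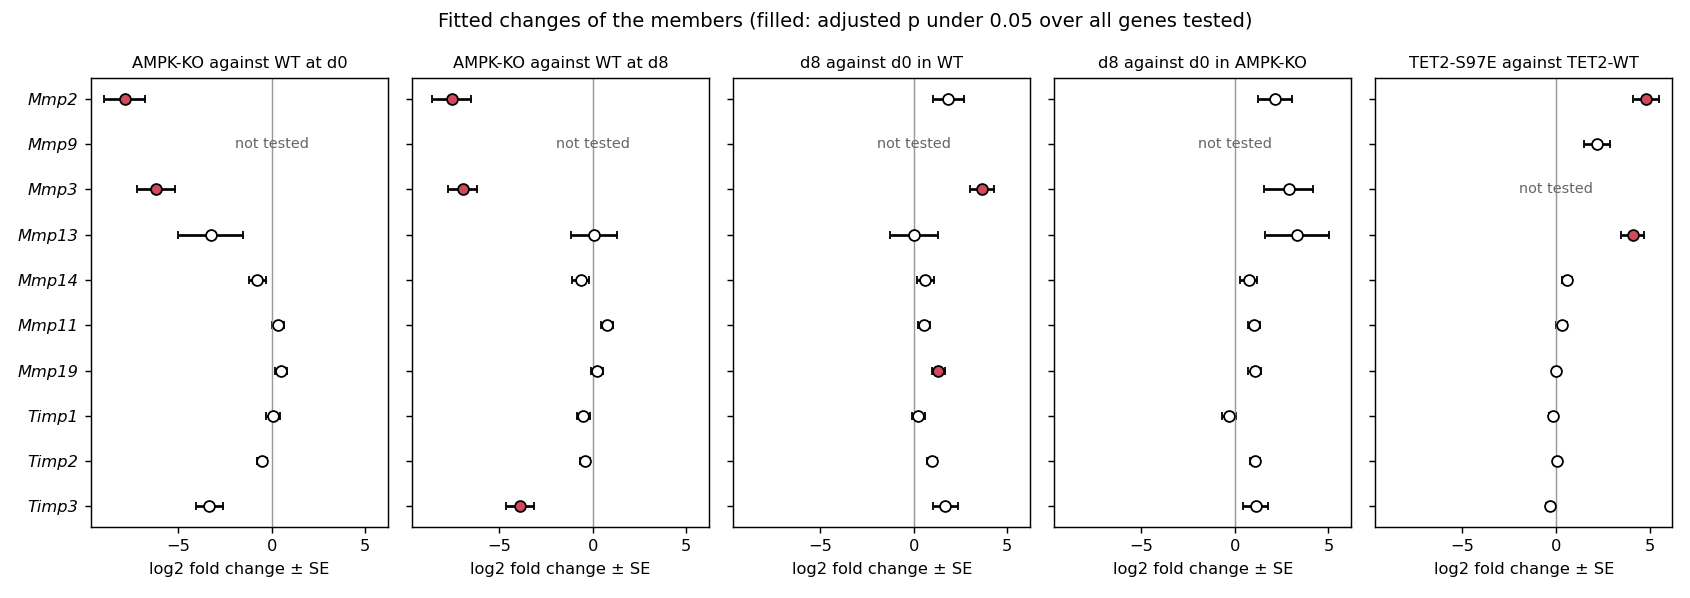
Fitted log2 fold change of each member with its standard error in 5 comparisons, filled where the adjusted p over all genes tested was under 0.05; values of Mmp3 at d0 and of Mmp13 in the first 4 panels rest on few or no counts and depend on the small count that edgeR adds. Mmp2 and Mmp3 lie far below 0 in AMPK-KO cells on both days (-7.84 and -6.15 at d0, -7.53 and -6.93 at d8), and Mmp2 (4.80) and Mmp13 (4.09) lie above 0 in TET2-S97E cells.

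From d0 to d8, 2 of the 9 members tested were called higher in WT cells and none lower, where 12.4% of all genes were called in either direction, 5.78% higher and 6.58% lower. Mmp3 was at 1.45 and 2.93 CPM at d0 and at 39.3 and 15.6 CPM at d8, with a fitted change of 3.65 (SE 0.62, edgeR adjusted p = 0.0169). Mmp19, which cleaves components of the basement membrane, was at 20.6 and 13.2 CPM at d0 and 35.4 and 49.0 CPM at d8, with a fitted change of 1.32 (SE 0.32, edgeR adjusted p = 0.0426). The days did not overlap for either gene. Both calls were lost without WT d0 replicate 2 or without either WT d8 library, the edgeR adjusted p then being 0.077 to 0.115 for Mmp3 and 0.0984 to 0.236 for Mmp19. DESeq2 called 5 members (Mmp2, Mmp3, Mmp19, Timp2 and Timp3) beside 19.3% of all genes, and edgeR with no filter on low counts called the same 5 higher beside 7.24% of all genes. With the replicate number as a block 4 members were called higher, beside 1135 genes higher and 1225 lower of 14329. The calls added were Mmp2 (2.27, SE 0.58, edgeR adjusted p = 0.0472) and Timp3 (1.95, SE 0.40, edgeR adjusted p = 0.0288). Fitted changes of all 9 members tested were above 0 in WT, with a median of 0.98 against 0.01 over all genes tested. Among them Mmp13 was level (0.0030), and the days overlapped for Mmp13, Mmp14 (0.62) and Timp1 (0.25). The changes of Mmp13 and Timp1 turned negative in fits without 1 library, so the signs do not show a rise of every member. Without WT d0 replicate 1 the fitted changes in WT were 3.91 for Mmp2, 1.62 for Mmp14 and 1.40 for Timp2.

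In AMPK-KO cells none of the 9 members tested was called between the days by edgeR, where 9.76% of all genes were called, 4.81% higher and 4.95% lower. At an unadjusted p under 0.05, where 28.4% of all genes lay, 4 were higher at d8 (Mmp2, Mmp11, Mmp19 and Timp2), and the same 4 were called by DESeq2, which called 17.7% of all genes. With no filter on low counts edgeR called 7 of 10 higher (these 4, Mmp3, Mmp14 and Timp3) and 6.85% of all genes, and among genes with at least 10 counts in every library it called Timp2. Timp2 was at 1048 and 891 CPM at d0 and at 1889 and 2197 CPM at d8, without overlap, with a fitted change of 1.08 (SE 0.28, edgeR adjusted p = 0.0558), and was called with the replicate number as a block (1.09, SE 0.27, edgeR adjusted p = 0.0489). In WT cells it was at 1735 and 1014 CPM at d0 and at 2785 and 2654 CPM at d8, with a fitted change of 0.98 (SE 0.28, edgeR adjusted p = 0.0621). Mmp2 was at 2.62 and 1.45 CPM at d0 and at 10.97 and 7.09 CPM at d8 in AMPK-KO cells, a fitted change of 2.16 (SE 0.90, edgeR adjusted p = 0.169), beside 1.85 (SE 0.81, edgeR adjusted p = 0.17) in WT cells. The difference between the changes in the 2 genotypes was tested as an interaction. It was called for none of the 9 members and for 0 of 14329 genes by edgeR, with 729 genes at an unadjusted p under 0.05 and 60 genes called by DESeq2. For Mmp3 the interaction term was -0.78 (SE 2.91) and for Mmp2 0.30 (SE 1.17), errors that would hide large differences.

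In the second experiment, 2 of the 9 members tested were called higher in TET2-S97E than in TET2-WT cells and none lower, against 6.98% of all genes called in either direction, with 3.71% called higher and 3.28% lower. With at least 10 counts in every library, which leaves out Mmp13, 7 members were tested. Of these 1, Mmp2, was called higher, beside 394 of 11986 genes. Mmp2 was at 1.36 and 1.56 CPM in TET2-WT clone 1, 8.79 and 7.02 CPM in TET2-WT clone 2, 45.9 and 169 CPM in TET2-S97E clone 1 and 121 and 182 CPM in TET2-S97E clone 2. Every TET2-S97E library lay above every TET2-WT library. The mean was 4.68 ± 3.79 CPM in TET2-WT and 129 ± 61.6 CPM in TET2-S97E cells (SD, n = 4), 27.6-fold higher, with a fitted change of 4.80 (SE 0.70, edgeR adjusted p = 0.00783). Between the TET2-WT clones Mmp2 differed by 2.41 (SE 0.58, edgeR adjusted p = 0.093) and between the TET2-S97E clones by 0.49 (SE 0.47, edgeR adjusted p = 0.664), both smaller than the difference between the genotypes. At those clone contrasts 0.858% and 6.17% of all genes were called by edgeR, in the latter 2.82% lower in clone 2, and 0 of 10 members, with 2 members at an unadjusted p under 0.05 in each, as were 20.5% and 19.5% of all genes. DESeq2 called 1 member and 6.18% of all genes between the TET2-WT clones, and 0 members and 9.56% of all genes between the TET2-S97E clones. With no filter on low counts edgeR called Mmp2 higher in clone 2 of TET2-WT (2.43, edgeR adjusted p = 2.96e-19) and Mmp13 lower in clone 2 of TET2-S97E (-1.37, edgeR adjusted p = 0.0125).

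Mmp13, a collagenase of fibrillar collagen, was at 0.814 and 0.185 CPM in TET2-WT clone 1, 0.229 and 0.285 CPM in TET2-WT clone 2, 5.55 and 12.6 CPM in TET2-S97E clone 1 and 4.24 and 2.91 CPM in TET2-S97E clone 2. These stand for 5 to 18 counts in TET2-WT and 84 to 388 counts in TET2-S97E libraries, which did not overlap. Mmp13 passed the filter through the TET2-S97E libraries, and was not tested with at least 10 counts in every library. The mean was 16.7-fold higher in TET2-S97E cells, with a fitted change of 4.09 (SE 0.63, edgeR adjusted p = 0.00883). Mmp9, the second gelatinase, was at 0.0452 to 0.606 CPM in TET2-WT and at 0.606 to 2.08 CPM in TET2-S97E libraries. The highest TET2-WT and the lowest TET2-S97E library were level to within rounding, and the fitted change of 2.22 (SE 0.69, edgeR adjusted p = 0.0894) was not called. DESeq2 called it (adjusted p = 0.0388), as did edgeR without TET2-WT clone 2 replicate 2 (3.19, edgeR adjusted p = 0.0244).

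Libraries of a clone are not independent samples of a genotype, and the second experiment has 2 clones per genotype. With the counts summed per clone, 0 genes of the whole table were called by edgeR, and the changes of Mmp2 (4.89) and Mmp13 (4.26) both had an edgeR adjusted p of 0.277. With clone as a random effect in limma-voom 166 genes were called, and Mmp2 kept its call while Mmp13 did not (limma adjusted p = 0.0583). Mmp13 also lost its call without TET2-WT clone 2 (edgeR adjusted p = 0.055). The mitochondrial share of counts was 2.03 to 2.29% in TET2-S97E and 1.00 to 2.14% in TET2-WT libraries, and the part of this in the changes was not tested.

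Of the remaining members none was called between the TET2 genotypes, and the groups of each overlapped. Mmp14 was at 310 to 457 CPM in TET2-WT and 341 to 801 CPM in TET2-S97E libraries, with a fitted change of 0.59 (SE 0.25, edgeR adjusted p = 0.183), and was called higher without TET2-S97E clone 1 (0.84, edgeR adjusted p = 0.0436). Mmp19 was at 65.4 ± 2.53 CPM in TET2-WT and 64.6 ± 9.85 CPM in TET2-S97E cells (SD, n = 4). The inhibitors had small fitted changes, of -0.18 (SE 0.18) for Timp1, 0.08 (SE 0.18) for Timp2 and -0.31 (SE 0.21) for Timp3. Timp3, which was among the genes called lower in AMPK-KO cells at d8, was at 81.4 to 159 CPM in TET2-WT and 79.5 to 110 CPM in TET2-S97E libraries. Mmp3 did not pass the filter here, with 2 to 27 counts in TET2-WT and 0 to 4 counts in TET2-S97E libraries, which overlapped. In the fit without a filter on low counts its change was -2.88 (SE 0.90, edgeR adjusted p = 0.0946). Without TET2-WT clone 2 replicate 2 Mmp3 passed the filter and was called lower (-3.26, edgeR adjusted p = 0.0282).

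The sum of the 7 metalloproteinases was then set beside that of the 3 inhibitors, per length. In WT cells at d0 the metalloproteinase sum was 411 and 105 CPM per kilobase and the TIMP sum 837 and 571. In AMPK-KO cells at d0 these were 89.2 and 89.5 for the metalloproteinases and 594 and 570 for the TIMPs. At d8 the metalloproteinase sum was 816 and 583 CPM per kilobase for WT against 183 and 145 for AMPK-KO, with the TIMP sum at 1323 and 1061 (WT) against 840 and 755 (AMPK-KO). The ratio of metalloproteinase to TIMP sum was thus 0.491 and 0.184 for the WT libraries against 0.15 and 0.157 for AMPK-KO at d0, and 0.617 and 0.55 (WT) against 0.218 and 0.192 (AMPK-KO) at d8. At d8 the groups were far apart in this ratio, and at d0 WT replicate 2 lay close to the AMPK-KO libraries.

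Mmp2 made most of that difference. It took 59.1 and 31.2% of the metalloproteinase sum in WT cells at d0, 74.3 and 66.8% at d8, and between 0.481 and 1.78% in the AMPK-KO libraries of either day, where Mmp14 took 51.7 to 64.8%. In TET2-WT libraries Mmp2 took 0.288 to 2.18% and in TET2-S97E libraries 10.7 to 20.3% of the sum, without overlap. The ratio to the TIMP sum was 0.204 to 0.282 in TET2-WT and 0.176 to 0.516 in TET2-S97E libraries, which overlapped because TET2-S97E clone 1 replicate 1 was the lowest of all 8. These sums describe transcripts, and neither secretion nor activation of the proteases was measured.

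**Figure D3:**
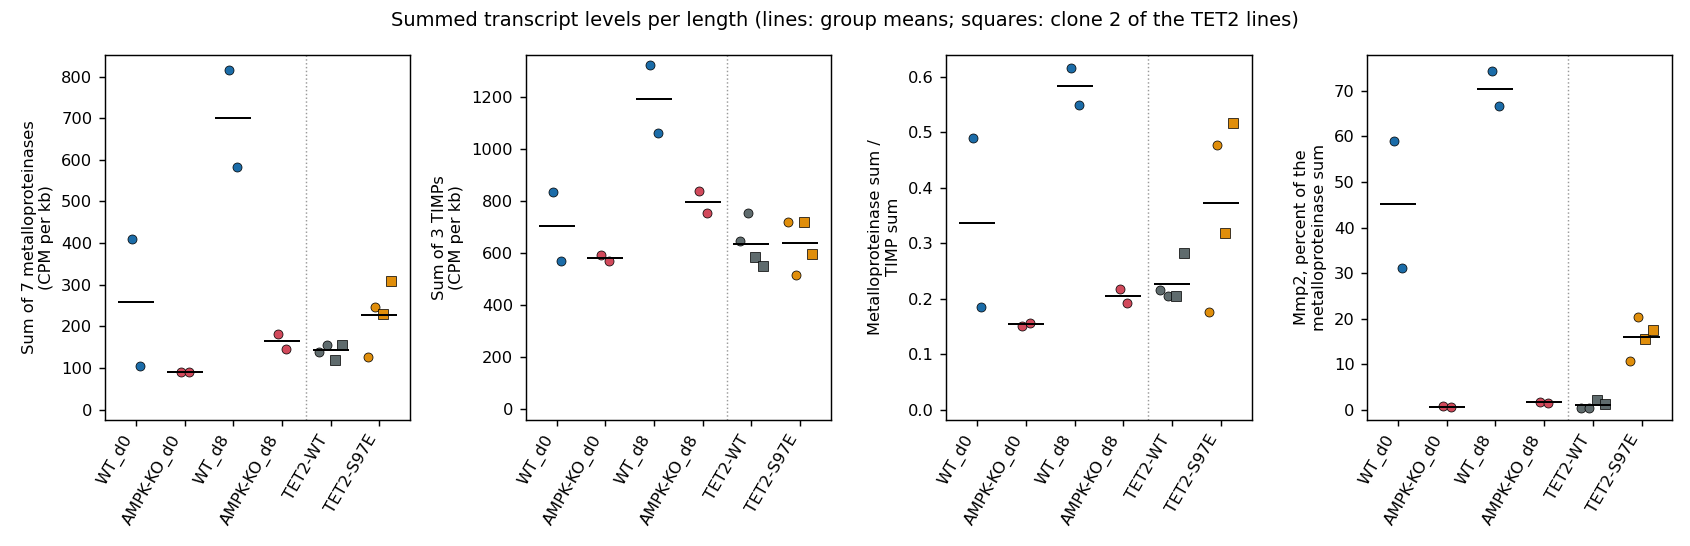
Summed level per length of the 7 metalloproteinases and of the 3 TIMPs (CPM per kilobase), their ratio, and the percent of the metalloproteinase sum that is Mmp2, with points for libraries and lines for group means. In WT cells at d8 the ratio was 0.617 and 0.55 and in AMPK-KO cells 0.218 and 0.192, while Mmp2 made 74.3 and 66.8% of the metalloproteinase sum for WT against 1.78 and 1.45% for AMPK-KO.

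Several genes of the family lie side by side on mouse chromosome 9, in the GRCm38 assembly. Along it come Mmp13 (chr9:7272514-7283331), Mmp3 (chr9:7445822-7455975), Mmp10, a second stromelysin, and Mmp8, a collagenase of neutrophils. Mmp2 lies at chr8:92827291-92853420 and Timp3 at chr10:86300372-86349506. In TET2-S97E cells Mmp13 was called higher, while Mmp10 was called lower, at 0.606 to 2.69 CPM in TET2-WT and 0.101 to 0.454 CPM in TET2-S97E libraries (log2 fold change -2.94, SE 0.59, edgeR adjusted p = 0.0217). In the first experiment Mmp3 was far lower in AMPK-KO cells. Mmp10 was at 2.94 and 5.15 CPM for the WT libraries against 0.0523 and 0.795 CPM for AMPK-KO at d0, without overlap, but was not called (-3.21, SE 1.35, edgeR adjusted p = 0.238). At d8 it was at 2.04 and 1.92 CPM (WT) against 0.163 and 3.35 CPM (AMPK-KO), which overlapped.

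Promoter windows from RefSeq on GRCm38.p6, from 250 bases before to 50 after the annotated start, were found for 7 of the 10 members. For Mmp2, Mmp9 and Mmp19 none was found, so their promoters were not examined. The AP-1 motif TGANTCA, to which Fos and Jun proteins bind, and the TATA box TATAAA were searched on both strands. Of 32851 windows of the same length, 7.81% held the first, 13.6% the second and 1.54% both. The windows of Mmp3 and Mmp13 held both and those of the other 5 members neither, and the window of the neighbour Mmp10 held both as well. The 100 bases before each start are shown because these promoters carry the same pair of motifs, in capitals, beside changes that differed. All lie on the + strand.
Mmp13, chr9:7272414-7272513: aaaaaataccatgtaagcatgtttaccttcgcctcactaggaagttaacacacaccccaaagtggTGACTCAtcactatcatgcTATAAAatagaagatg
Mmp3, chr9:7445722-7445821: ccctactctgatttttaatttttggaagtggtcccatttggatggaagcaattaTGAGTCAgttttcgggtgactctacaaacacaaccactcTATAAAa
Mmp10, chr9:7502242-7502341: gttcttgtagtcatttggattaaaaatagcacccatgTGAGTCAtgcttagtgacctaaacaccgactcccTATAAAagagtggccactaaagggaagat
The AP-1 match begins at position -35 in Mmp13, -46 in Mmp3 and -63 in Mmp10, counted from the annotated start, and the TATA match at -16, -7 and -29. Beside them Mmp13 was 16.7-fold higher in TET2-S97E cells and Mmp10 was called lower. A match is a description of the letters and not of a bound site.

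The promoters also differed in CpG dinucleotides, at which most methylated cytosine lies and on which TET enzymes act. The windows of Mmp3 and Mmp13 held 1 each, where the median of all windows was 7, while those of Timp1, Mmp14, Mmp11, Timp3 and Timp2 held 8, 10, 19, 24 and 25. That of Timp3, lower in AMPK-KO cells at d8, is shown for the 100 bases before its RefSeq start on the + strand, with CpG dinucleotides in capitals.
Timp3, chr10:86300312-86300411: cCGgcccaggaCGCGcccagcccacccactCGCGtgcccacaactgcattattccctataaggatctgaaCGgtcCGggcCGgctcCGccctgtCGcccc
This stretch holds 10 CpG dinucleotides. DNA methylation was not analysed here.

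In the lists of related genes below, many calls were lost when 1 library was left out. The number of calls over all genes also fell in most of these fits, as given in the last section, so these losses are not particular to the lists. Of 11 genes called by edgeR in AMPK-KO cells at d0, 6 were kept without WT d0 replicate 1 (Adam22, Adam23, Adamts7, Jund and Serpine2 were lost), 6 without WT d0 replicate 2, and 0 and 2 without AMPK-KO d0 replicate 1 or 2. When 1 library was left out, 2 to 10 of 17 were kept at d8, 0 to 10 of 14 between the days in WT, 0 to 4 of 6 between the days in AMPK-KO and 2 to 11 of 11 in TET2-S97E cells. For reading the further counts below, the share of all genes at an unadjusted p under 0.05 was 20.9% at d0, 22.8% at d8, 31.1% and 28.4% between the days (WT and AMPK-KO) and 23.5% in TET2-S97E cells, and DESeq2 called 9.72%, 11.6%, 19.3%, 17.7% and 13.6%.

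Of the 17 further MMP and TIMP genes, 8 passed the filter in the first table. None was called in AMPK-KO cells at d0 by edgeR, 4 had an unadjusted p under 0.05 and DESeq2 called 2 (Mmp16 and Mmp28). At d8 edgeR called Mmp8, with 53 and 21 counts (WT) against 0 and 0 (AMPK-KO), at least 14.6-fold lower (edgeR adjusted p = 0.0374) and 7.35-fold without WT d8 replicate 1, where the call was lost. DESeq2 called 5 at d8 (Mmp8, Mmp15, Mmp16, Mmp23 and Mmp28), and of these Mmp8 and Mmp16, with 0 counts in AMPK-KO cells, passed the filter through the WT libraries alone. Mmp16, a membrane-type metalloproteinase, had 291 and 32 counts for the WT libraries against 0 and 0 for AMPK-KO at d0, and 150 and 98 against 0 and 0 at d8. These are folds of at least 53.1 and 48.0, the first falling to 11.7 without WT d0 replicate 1, and edgeR did not call Mmp16 (edgeR adjusted p = 0.064 and 0.0551). Mmp15, also of the membrane type, was called higher at d8 than at d0 in WT cells (2.94, SE 0.60, edgeR adjusted p = 0.0267). It was called higher too in TET2-S97E cells, at 9.70 to 16.6 CPM against 3.07 to 6.52 CPM (1.67, SE 0.29, edgeR adjusted p = 0.0129).

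Mmp8 was called higher at d8 than at d0 in WT cells as well, at least 12.7-fold (edgeR adjusted p = 0.0431). Beside Mmp8, Mmp15 and Mmp10, which was called lower in TET2-S97E cells as given above, edgeR called no further gene of the family between the genotypes or the days, and Mmp28 was called between the TET2-S97E clones (0.74, edgeR adjusted p = 0.0474). Mmp28, an epilysin known from skin keratinocytes, was at 18.6 and 11.8 CPM (WT) against 7.54 and 5.10 CPM (AMPK-KO) at d0, with a fitted change of -1.26 (SE 0.33, edgeR adjusted p = 0.0893). Mmp23 had 2 to 79 counts, Mmp17 2 to 22 and Timp4 0 to 25 counts across the 16 libraries, and none of the 3 was called by edgeR. Mmp12 reached 42 counts in AMPK-KO d8 replicate 2, Mmp7 11 counts in WT d8 replicate 1 and Mmp24 11 counts in the same library, and these 3 did not pass the filter for the comparisons of genotypes or days. The other 6 genes stayed under 10 counts in every library.

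Proteases of the ADAMTS family, secreted enzymes that cleave proteoglycans and process collagen, were examined as a list of 19. Of 13 tested in the first table, 3 at d0 and 4 at d8 were called lower in AMPK-KO cells, against 2.83% and 3.98% of all genes, and none higher. Adamts2, which removes the amino-terminal propeptide of fibrillar collagen, was at 85.6 and 24.5 CPM for the WT libraries against 1.20 and 0.701 CPM for AMPK-KO at d0, and at 127 and 208 against 1.71 and 1.41 CPM at d8, with fitted changes of -5.86 (SE 0.71) and -6.74 (SE 0.71) and edgeR adjusted p of 0.0109 and 0.00566. The d0 difference of Adamts2 would be smaller without WT d0 replicate 1, at 85.6 CPM. Adamts4, an aggrecanase, was called in all 5 comparisons. Its fitted changes were -1.28 at d0 and -2.35 at d8 between AMPK-KO and WT cells, 2.48 (WT) and 1.41 (AMPK-KO) between the days, and 1.65 (SE 0.30, edgeR adjusted p = 0.0154) in TET2-S97E cells. Adamts15 had 137 and 252 counts and Adamts8 73 and 105 counts in WT cells at d8, and both had 0 in AMPK-KO cells, folds of at least 72.3 and 33.4 (edgeR adjusted p = 0.00901 and 0.0199). With 0 counts in AMPK-KO cells, both genes could be called at d8 only as lower, which limits the reading of the count above. Adamts7 was called lower at d0 (-1.82, edgeR adjusted p = 0.0423) and not at d8 (-0.83, edgeR adjusted p = 0.21). It was called higher at d8 than at d0 in AMPK-KO cells (1.70, SE 0.35, edgeR adjusted p = 0.0335), while the difference of the changes over the days between AMPK-KO and WT cells was not called. Adamts16 was called higher at d8 in WT cells (5.81, SE 1.24, edgeR adjusted p = 0.0296).

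Of 10 membrane-anchored ADAM proteins tested, 2 were called higher in AMPK-KO cells on each day, against 0.698% and 1.36% of all genes, and none lower. These were Adam22 (3.19 at d0 and 3.13 at d8) and Adam23 (4.64 and 4.38), which lack protease activity and act in adhesion. Adam23 also differed between the TET2-S97E clones, higher in clone 2 by 4.59 (SE 0.54, edgeR adjusted p = 0.00209). In TET2-S97E cells 3 of 10 were called lower and 1 higher, against 3.28% and 3.71% of all genes. Adam22 (-1.83), Adam8 (-1.27) and Adam15 (-0.71) were lower and Adam12 (1.5), a marker of fusing and regenerating muscle, higher. Between TET2-WT clone 2 and clone 1, Adam12 differed by 1.14 (edgeR adjusted p = 0.0601) and Adam22 by -1.18 (edgeR adjusted p = 0.12). Neither was called there.

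**Figure D4:**
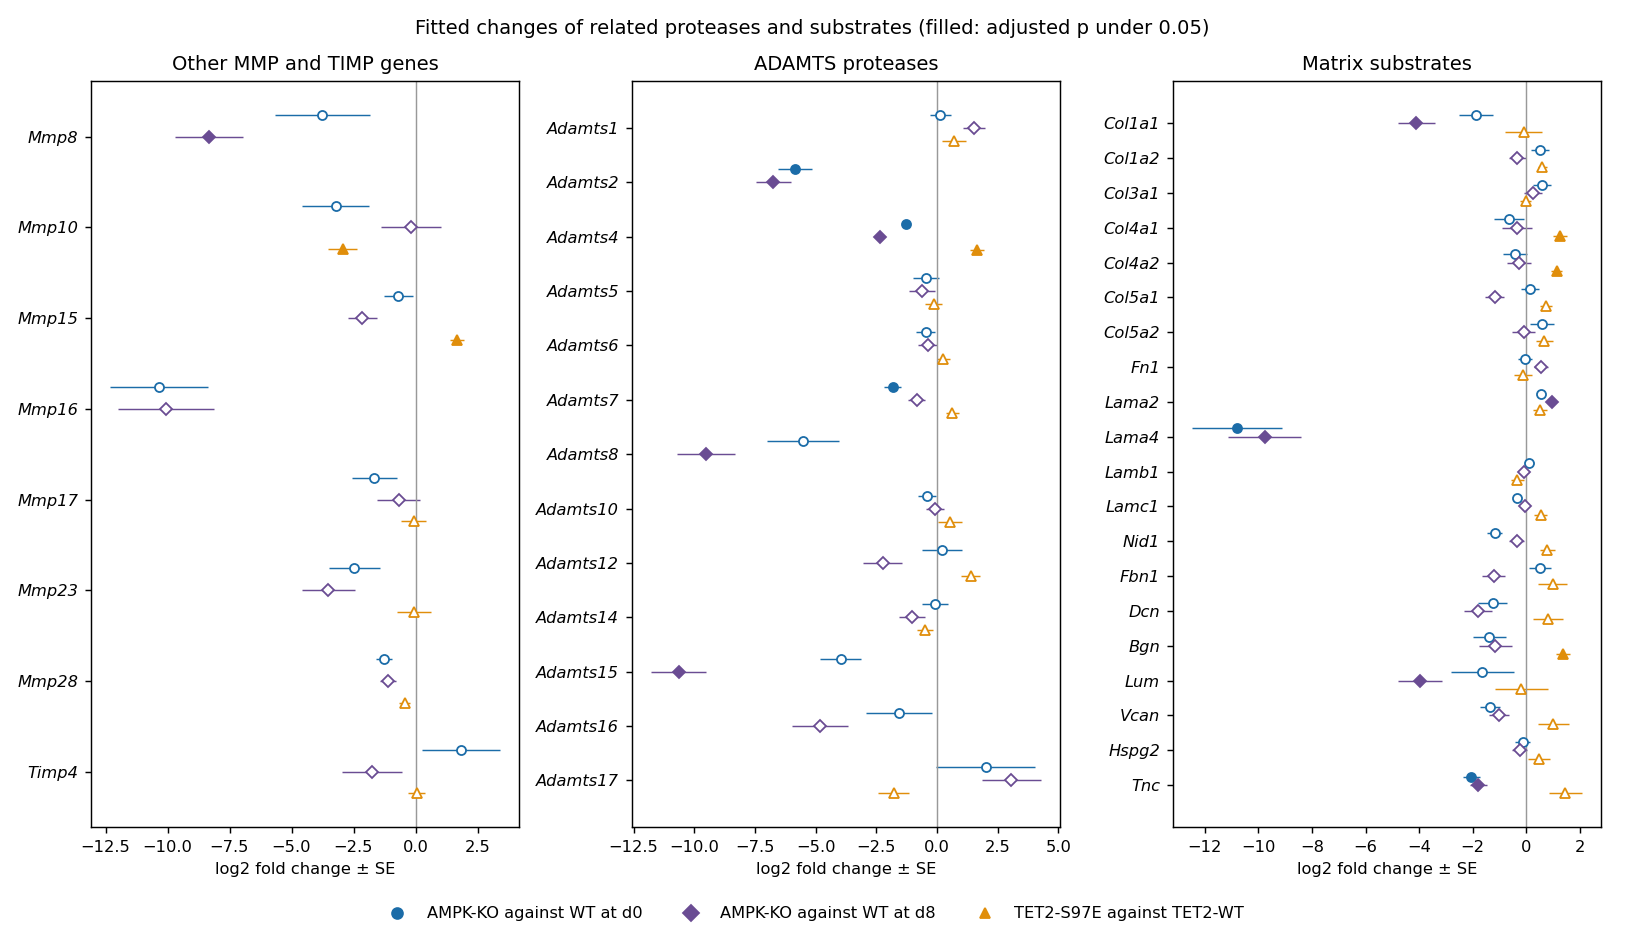
Fitted log2 fold changes with standard errors of the further MMP and TIMP genes, the ADAMTS proteases and the matrix substrates that passed the filter, in AMPK-KO against WT at d0 and d8 and in TET2-S97E against TET2-WT cells, filled where the adjusted p was under 0.05. Adamts2, Adamts4, Tnc and Lama4 are filled and below 0 on both days, while points at about -8 and beyond (Mmp8, Mmp16, Adamts8, Adamts15 and Lama4) come from groups at or under 3 counts and depend on the count edgeR adds, so their size is no measure of the change.

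Of the activators and the plasminogen system, a protease cascade that converts metalloproteinase precursors, 3 of 15 tested genes at d0 and 4 at d8 were called lower in AMPK-KO cells, against a background of 2.83% and 3.98% of all genes. In TET2-S97E cells 0 of 13 were called by edgeR (6.98% of all genes), 3 had an unadjusted p under 0.05 (23.5%) and 2 were called by DESeq2 (13.6%). Plat, the tissue plasminogen activator, was at 92.0 and 48.9 CPM (WT) against 11.0 and 16.3 CPM (AMPK-KO) at d0, and at 127 and 153 against 23.7 and 16.4 CPM at d8, with fitted changes of -2.37 and -2.80 (SE 0.36 and 0.37, edgeR adjusted p = 0.0203 and 0.0112). Cd44, a hyaluronan receptor that can hold Mmp9 and Mmp14 at the cell surface, changed by -2.43 and -1.97 (edgeR adjusted p = 0.0175 and 0.0265). Serpine2, an inhibitor of thrombin and plasminogen activators, had 1513 and 159 counts for the WT libraries against 0 and 2 for AMPK-KO at d0, and 1141 and 258 against 2 and 0 at d8, at least 275-fold and 280-fold lower. Without WT replicate 1 of that day these bounds fell to 58.0-fold and 90.4-fold, and neither call was kept (edgeR adjusted p = 0.0664 and 0.0989). Pcsk6, a proprotein convertase, had 239 and 177 counts in WT cells at d8 and 0 in AMPK-KO cells. Serpine2, at or under 2 counts in AMPK-KO cells, passed the filter through the WT libraries alone. Like Pcsk6 at d8, it could be called only as lower. Plaur, the urokinase receptor, was called lower at d8 than at d0 in both genotypes (-2.58 and -2.25).

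Transcription factors of the AP-1 and ETS families, known regulators of several metalloproteinase genes, were tested as a list of 12. In AMPK-KO cells edgeR called 1 on each day, beside 3.52% and 5.35% of all genes, and DESeq2 3 at d0 and 2 at d8, beside 9.72% and 11.6%. Jund was called lower in AMPK-KO cells at d0 (-1.21, SE 0.21, edgeR adjusted p = 0.0322), and Jun was called higher at d8 (1.75, SE 0.28, edgeR adjusted p = 0.0195), at 265 and 340 CPM (WT) against 789 and 1246 CPM (AMPK-KO). In TET2-S97E cells edgeR called Fosl1, which was lower (-0.80, SE 0.16, edgeR adjusted p = 0.0224), and DESeq2 called Fosl1 and Ets1. Ets1 was called lower at d8 than at d0 in WT cells (-0.88).

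Among 20 tested matrix proteins that metalloproteinases cleave, 2 were called lower without AMPK at d0, against 2.83% of all genes, and at d8 4 lower and 1 higher, against 3.98% and 1.36%. Tnc, tenascin C, was at 322 and 439 CPM for the WT libraries against 64.3 and 118 CPM for AMPK-KO at d0 and was lower on both days (-2.06 and -1.79, edgeR adjusted p = 0.019 and 0.0235). Lama4, a laminin alpha chain of vessel walls, had 382 and 55 counts in WT libraries and 0 in both AMPK-KO libraries at d0, at least 72.1-fold lower, and 20.1-fold without WT d0 replicate 1. With 0 counts in AMPK-KO cells it could be called at d0 only as lower. Col1a1 (-4.11) and Lum (-3.98) were called lower at d8 and were at -1.87 and -1.65 at d0, where neither was called, and their difference between the days was not called in the interaction test. Lama2, the laminin chain of the muscle basement membrane, was called higher (0.94, SE 0.14, edgeR adjusted p = 0.016). In TET2-S97E cells, 3 of 19 were called and all were higher (3.71% of all genes), namely Col4a2 (1.13), Col4a1 (1.27), which together form the type IV collagen that gelatinases digest, and Bgn (1.37). Between the clones of 1 genotype, 4 of 19 were called in TET2-WT and 8 of 19 in TET2-S97E cells, all higher in clone 2, against 0.463% and 3.35% of all genes. Dcn, a collagen-binding proteoglycan, rose from d0 to d8 by 5.48 in WT and 4.93 in AMPK-KO cells, and Nid1 fell by 1.91 in WT cells.

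Fibroblast markers were read as a list of 8. Their summed level was 63.6 and 26.4 CPM (WT) against 26.9 and 35.3 CPM (AMPK-KO) at d0, and 926 and 1433 CPM for the WT libraries against 296 and 439 CPM for AMPK-KO at d8, with Dcn the most abundant in 13 of the 16 libraries and Pdgfra in the other 3, all at d0. Of 5 tested, 0 were called at d0 by edgeR and by DESeq2, with 1 at an unadjusted p under 0.05, and at d8 only Lum was called by edgeR, lower in AMPK-KO cells, while DESeq2 called 2. From d0 to d8, 4 of 5 were called higher in WT cells (Dcn, Lum, Dpt and Pi16, 5.78% of all genes) and 2 in AMPK-KO cells (Dcn and Dpt, 4.81% of all genes). Between the clones Lum was called higher in TET2-WT clone 2, and in TET2-S97E clone 2 Dcn, Lum and Pi16 were called higher and Dpt lower. In the TET2 libraries the sum was 245 to 602 CPM in TET2-WT and 270 to 1173 CPM in TET2-S97E libraries, and by edgeR and DESeq2 0 of 5 were called, with 0 at an unadjusted p under 0.05. Osteoblast and chondrocyte markers, the cells in which Mmp13 is best known, summed to 122 to 156 CPM in TET2-WT and 125 to 138 CPM in TET2-S97E libraries, with Runx2 the most abundant in the 2 libraries of TET2-WT clone 2 and Sox9 in the other 6. Of the 3 of 9 that were tested, 1 was called higher in TET2-S97E cells, beside 3.71% of all genes. This was Col10a1 (3.59, SE 0.49, edgeR adjusted p = 0.00705), at 5.08 to 16.4 CPM against 0.356 to 1.16 CPM. Runx2 (-0.18) and Sox9 (-0.11) were below 0 and not called. Sp7 had at most 6 counts and Col2a1 at most 4 in any library, and Bglap was highest in TET2-S97E clone 2, at 16 and 15 counts. Of the 2 endothelial markers tested, Tek was called lower (-1.93, edgeR adjusted p = 0.0326), beside 3.28% of all genes, and Cdh5 (-0.11) was not called. The part of these markers in the members' changes was not tested.

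For each member the genes with the most similar profile were sought among the 13078 genes that passed the filter in both tables, by the smallest root mean square difference of log2 CPM, centred within each table, over the 16 libraries. For Mmp2, whose own profile had a root mean square of 3.38, Nrep was among the 2 nearest, at 1.43. Timp3 was nearest to Plat (0.63) and Col6a2 (0.69), with its own root mean square at 1.47. Mmp13 was nearest to Nsdhl (0.94) and Idi1 (0.96), enzymes of sterol synthesis, beside a root mean square of its own of 1.60. The profiles of the other members had a root mean square of 0.31 to 0.55. Their nearest genes were Gfod2 and Pla2g15 for Mmp11, Man2b2 and Mxd4 for Mmp14, Bckdha and Map1lc3b for Mmp19, Fpgs and Limk2 for Timp1, and Atraid and Ubl3 for Timp2. Mmp3 and Mmp9 each passed the filter in 1 table and were left out. The likeness of profiles is a description over libraries that share groups and carries no test.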

How the data were processed

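Total RNA from C2C12 cells was sequenced as read pairs in 16 libraries. The deposited tables hold raw counts per gene, made by the authors with Trim Galore 0.4.5, STAR 2.5.3a with a repeated mapping pass, featureCounts 1.5.3 and the GENCODE M12 annotation on mouse GRCm38. Whether counting used strand is not given in the sources used here. Each table was fitted on its own in edgeR 4.0.16 (R 4.3.3) by the quasi-likelihood test with TMM normalization, filterByExpr and Benjamini-Hochberg adjustment over all genes tested (14329 and 13433 genes). The threshold was an adjusted p of 0.05. The first model held 4 groups and the second 2 genotypes, and the clones were compared in a model of their own. Folds against groups at or under 3 counts in every library were computed against that floor per library and given as bounds. Exon lengths came from GENCODE M21 on the same build, in which 49326 of 49585 identifiers were found.

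The members and all gene lists were chosen with earlier results of these data known. Named genes were the members, the edited genes, up to 4 called genes per list for the genotypes and up to 3 for the days, further MMP and TIMP genes with at least 10 counts in a library, and the 2 nearest profiles of each member. The result for 1 of these profiles is not reported here. Col1a1, Col4a1, Bgn, Adam15 and single markers were added after their values were seen. The study mentions independent AMPK-KO lines, but the labels give no line or culture for a library, so p-values measure the spread between these libraries, which may be technical. Same-numbered WT and AMPK-KO libraries deviated together in all 6 pairs of groups (correlation 0.119 to 0.324), a pairing read from the data and not from the labels, and blocked values are given where they change a call. No pair of replicates agreed within sampling noise, the chi-square per degree of freedom being 29.4 or more. Alternatives were DESeq2 1.42.0, its size factors, other filters, a replicate block, leaving out libraries or clones (for the listed genes too, added after seeing the data), counts summed per clone and limma-voom (limma 3.58.1) with clone as a random effect. The fit was tested on simulated data.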

Additional observations from a re-analysis of the deposited data

Results flagged for a closer look

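Among 20 sets of 4 TET2 libraries, 1 library stood far from the others of its group. Mmp13 was at 0.814 CPM, from 18 counts, in TET2-WT clone 1 replicate 1, where the other 3 TET2-WT libraries lay between 0.185 and 0.285 CPM. The gap was 0.84 of the range of the group, above Dixon's critical value for 4 libraries. Chance flags about 1 in 20 such groups. Without that library the change of Mmp13 in TET2-S97E cells was 4.75 (SE 0.63, edgeR adjusted p = 0.0228).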

How the results depend on the processing

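Of 54 tested member results 9 were called, and none of the 9 changed direction under any alternative, while 17 of those not called did. Direction says little about a call. Only that of Mmp3 in AMPK-KO cells at d8 held wherever it was tested, and each of the others was lost under some alternative. The count of genes called in AMPK-KO cells at d0 was 505, and 1393 by DESeq2, 2026 with no filter, 204 with at least 10 counts in every library, 335 from the d0 libraries alone and 17 to 437 when 1 library was left out. At d8 it was 766, and 1656, 2503 and 277 under the first 3 of these and 107 to 552 without 1 library. From d0 to d8 it was 1771 in WT (2762 by DESeq2, 3293 with no filter, 0 to 2260 without 1 library) and 1398 in AMPK-KO cells (2532, 3039, 0 to 923). For the difference of these changes it was 0 (60, 449, 0 to 6). For TET2-S97E it was 938, and 1825 by DESeq2, 0 with counts summed per clone, 166 by limma-voom, 183 and 625 without TET2-WT clone 1 or 2, 800 and 1186 without TET2-S97E clone 1 or 2, and 304 to 1092 without 1 library. Between the TET2-WT clones it was 124 (894 by DESeq2, 1627 with no filter) and between the TET2-S97E clones 892 (1383, 1680). With no filter on low counts edgeR also called Mmp14 and Timp3 lower at d0 and Mmp11 higher at d8, Mmp2 between the TET2-WT clones and Mmp13 between the TET2-S97E clones. The causes were not tested.

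The deviations of same-numbered TET2 libraries correlated at -0.0355 to 0.512, not above 0.1 in every pair of clones, and the numbers were not read as a pairing there. With the number as a replicate block, 740 and 1144 genes were called in AMPK-KO cells at d0 and d8 and 858 in TET2-S97E cells, and 2360 and 1854 between the days in WT and AMPK-KO cells. The block added calls of Timp3 at d0 (-3.18, edgeR adjusted p = 0.0159), of Mmp2 (2.27, 0.0472) and Timp3 (1.95, 0.0288) between the days in WT, and of Timp2 (1.09, 0.0489) in AMPK-KO cells, and the 9 called results were called with it as well. The block turned the sign of Mmp13 at d8 (-0.24) and of the difference of changes of Mmp2 (-0.057). Leaving out a clone turned those of Mmp11 (-0.034, without TET2-S97E clone 2), Mmp19 (0.0054 without TET2-WT clone 1, 0.032 without TET2-S97E clone 1), Timp1 (0.023, without TET2-S97E clone 1) and Timp2 (-0.11, without TET2-WT clone 2).

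Without 1 library, signs also turned within these ranges. In AMPK-KO against WT cells Mmp14 ran from -1.35 to 0.24 and Timp1 from -0.017 to 0.16 at d0, and Mmp13 from -1.78 to 1.64 and Timp1 from -0.98 to 0.027 at d8. Between the days Mmp13 ran from -1.58 to 1.54 and Timp1 from -0.28 to 0.60 in WT, and Timp1 from -0.81 to 0.030 in AMPK-KO cells. The difference of changes ran from -1.74 to 1.08 for Mmp2, -1.66 to 1.55 for Mmp3, -0.87 to 0.67 for Mmp14, -0.60 to 0.12 for Mmp19, -0.32 to 0.39 for Timp2 and -1.61 to 0.011 for Timp3. In TET2-S97E cells Mmp19 ran from -0.11 to 0.067 and Timp2 from -0.021 to 0.19. Members at a few counts, Mmp3, Mmp9 and Mmp13 in most groups, are limited by depth.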
